A study of Mus musculus with 2 samples.

Results

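The genes described here are 10 early-response genes of the AP-1, EGR and serum-response systems, namely Fos, Fosb, Fosl1, Jun, Junb, Egr1, Egr2, Ier2, Ier3 and Srf. They were chosen by name, and every probe set annotated to one of them alone was taken. All 10 were measured, on 14 of the 15273 probe sets with a single gene name, among 10313 genes in all. Gene expression had been measured on 2 Affymetrix 3' expression arrays of RNA from mouse embryonic stem cells. The control array came from cells of line 46C with the genotype label Control, and the other array from 46C cells labelled as overexpressing lincU, a long noncoding RNA that the study's title links to naive pluripotency and ERK activity. What the control cells carried in place of lincU, how lincU was introduced and whether the cells were a clone or a pool are not given in the sources used here. Both cultures grew on feeder cells in medium with 15% serum and 1000 U/ml of leukaemia inhibitory factor (LIF), and the feeder cells were removed before the RNA was taken. Each group had 1 array, so none of the differences below has a replicate check, and no p-value is given.

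Early-response genes are transcribed within minutes of a growth signal, without the need for new protein. In the textbook route, growth factors in serum activate the RAS-ERK cascade, and ERK and the kinases below it phosphorylate ternary complex factors that sit beside serum response factor (SRF) on promoters of genes such as Fos and Egr1. The protein products are themselves mostly transcription factors. FOS and JUN family proteins pair through leucine zippers to form AP-1, EGR proteins bind DNA through zinc fingers, and SRF binds the CArG box, which is also found at the Srf gene itself. In mouse embryonic stem cells ERK signalling, driven largely by FGF4, favours exit from the naive state, and early genes serve as a transcript-level readout of the pathway.

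Promoter windows are shown for the 3 genes with the largest differences among the bright probe sets below, Fosb, Fos and Srf. They were chosen because some response elements of this system lie in promoters. Each window is the 250 bases before the start site, 5′ to 3′ on the coding strand, from RefSeq on build GRCm38.p6. Elements further upstream are not covered. Capitals mark matches, on either strand, to a CArG box, to the CRE half-site TGACG, to the EGR motifs GCGTGGGCG and GCGGGGGCG and to TATAAA. The Fos window is chr12:85473640-85473889 on the plus strand, the Fosb window chr7:19310046-19310295 on the minus strand and the Srf window chr17:46556163-46556412 on the minus strand.
Fos: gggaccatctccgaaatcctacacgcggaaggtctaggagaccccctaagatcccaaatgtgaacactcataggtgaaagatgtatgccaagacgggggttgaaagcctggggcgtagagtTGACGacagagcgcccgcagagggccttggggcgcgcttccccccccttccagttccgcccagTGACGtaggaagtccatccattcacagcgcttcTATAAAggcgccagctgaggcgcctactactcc
Fosb: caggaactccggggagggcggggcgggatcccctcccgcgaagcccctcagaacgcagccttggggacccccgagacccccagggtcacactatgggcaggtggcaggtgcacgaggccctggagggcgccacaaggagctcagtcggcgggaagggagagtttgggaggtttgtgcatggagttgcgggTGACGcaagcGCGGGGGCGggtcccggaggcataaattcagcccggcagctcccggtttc
Srf: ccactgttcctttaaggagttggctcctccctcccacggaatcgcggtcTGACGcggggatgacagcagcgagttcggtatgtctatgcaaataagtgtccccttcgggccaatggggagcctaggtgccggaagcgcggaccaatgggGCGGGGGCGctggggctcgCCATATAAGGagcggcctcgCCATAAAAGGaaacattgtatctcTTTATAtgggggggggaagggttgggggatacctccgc
The Srf window held 2 CArG boxes, CCATATAAGG from base -82 to -73 and CCATAAAAGG from base -62 to -53, counted from the start site. No CArG box matched in the Fos or Fosb window, which says only that these letters are not within 250 bases of the listed start. The Fos window held the half-site TGACG at -129 to -125 and at -66 to -62, and TATAAA at -33 to -28. The Fosb window held TGACG at -60 to -56 and an EGR match at -50 to -42. Of the 32841 mouse promoter windows of this length, 1.47% held a CArG box, 17.8% TGACG, 3.06% an EGR motif and 12.4% TATAAA. Entries were matched for 7 of the 10 genes. Egr2 had 5 listed starts, and 4 of these windows held a CArG box, which was CCATATATGG in 3 overlapping windows of the same start region. The windows of Jun, Junb and Ier3 held none, and no window of the 7 genes held the AP-1 motif TGACTCA or TGAGTCA, which 4.46% of all windows held. A match is a description of letters and not a measured binding site.

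In the overexpressing cells 8 of the 9 early genes bright enough to be compared had lower signal than in control cells. Fosb and Fos, both partners of JUN in AP-1, were at least 2-fold lower, Srf and Jun at least 1.5-fold lower, and Ier3 alone was higher, by less than the spread between probe sets of the same gene. Bright means that, on whichever array gave more signal, the probe set reached the median of all named probe sets, which was 7.96 on the control and 7.90 on the overexpression array in log2 signal. Where a gene had several probe sets, the one with the most signal on average stood for it. Values below the 25th percentile of an array were raised to that floor, at 5.73 and 5.65. Of all 5609 bright genes 49.8% were lower and 50.2% higher, 6.69% at least 1.5-fold lower and 1.30% at least 2-fold lower. Of the 9 bright early genes 88.9% were lower, 44.4% at least 1.5-fold lower and 22.2% at least 2-fold lower. Fosb and Egr2 reached brightness through the control array alone, so they could not have been counted there as higher. Of the 7 early genes bright on both arrays, 6 were lower, Fos, Srf and Jun at least 1.5-fold and Fos alone 2-fold, while 49.7%, 4.56% and 0.444% of the 5178 genes bright on both arrays were lower by these measures. That stricter rule was chosen after the values were seen. None of the 9 was at least 1.5-fold higher, against 4.65% of bright genes. The median log2 difference, overexpression minus control, was -0.41 for the 9 bright early genes, against 0.00 for all bright genes. For all 10, with the dim Fosl1 included, it was -0.49, against 0 for all genes. With probe sets averaged the median of the 10 was -0.41. The list was chosen with results of these arrays known, so these shares describe the list and are not independent evidence of its direction.

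Probe sets that read the same gene give the only repeated measurement on these arrays. In 1732 genes read by more than 1 bright probe set, the log2 difference scattered within a gene with an SD of 0.23. With these genes divided by signal into 4 equal groups, the SD was 0.32 in the dimmest group, 0.23 and 0.20 in the middle groups and 0.16 in the brightest. It holds no variation between cultures. All 8 lower bright genes differed by more than 0.23, which 23.3% of bright genes did in the same direction. Ier3 differed by less than 0.23.

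**Figure D1:**
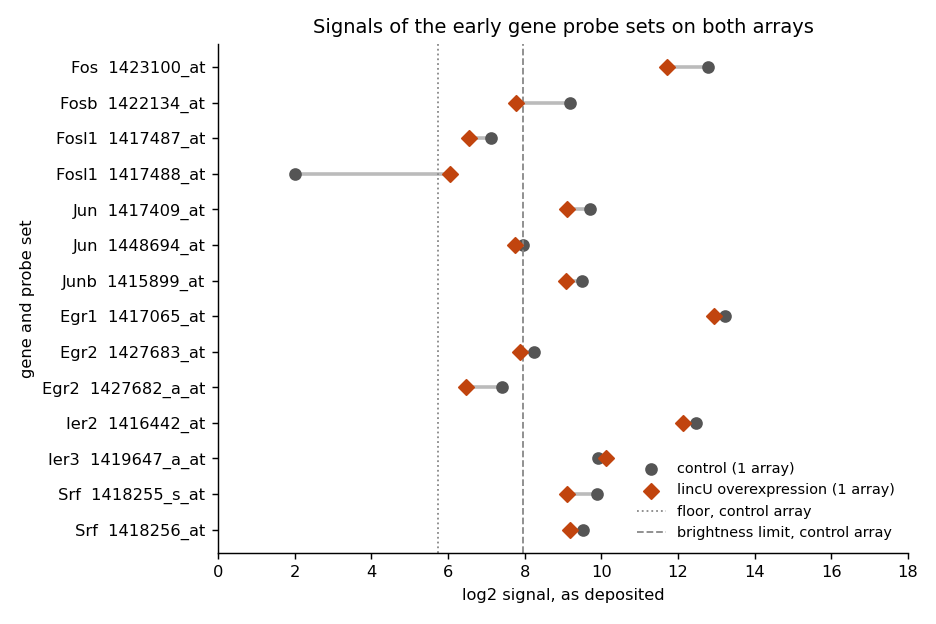
Log2 signal of each early gene probe set (x axis, as deposited) on the control array (grey circles) and the lincU overexpression array (orange diamonds), 1 array per group and so no error bars, with dotted and dashed lines at the control array's floor of 5.73 and brightness limit of 7.96. The overexpression value lies left of the control value in every row but those of Ier3 and the second Fosl1 probe set, whose control value of 2.01 is under the floor.

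Fosb and Fos gave the largest differences of the bright early genes. Fos, the founding AP-1 subunit and a classical readout of ERK-driven SRF activity, had 12.77 on the control and 11.72 on the overexpression array in log2 signal. This is a difference of -1.06, or 2.08-fold lower, just past the 2-fold limit. Its signal lay in the range where probe sets of a gene varied least, with an SD of 0.16. Ordered from the lowest difference, Fos was number 64 of the 5609 bright genes, and 1.14% of them were as low or lower. Fosb, a close relative of Fos induced by the same stimuli, read 9.19 in control and 7.78 in overexpressing cells. At -1.41, or 2.66-fold lower, it was number 23 of the bright genes, of which 0.41% were as low or lower. Fosb was bright through the control array alone, and its mean signal lay in the dimmest group, where the SD between probe sets was 0.32. Both genes were represented by a single probe set, so neither difference has a second measurement on these arrays.

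Fosl1, which encodes the FOS relative FRA1, was dim on both of its probe sets. Probe set 1417487_at read 7.13 on the control and 6.56 on the overexpression array, differing by -0.57. Probe set 1417488_at had 2.01 and 6.05, the control value lying under the floor, and the floored difference was 0.33. The 2 probe sets thus went opposite ways near or below the floor, and no direction is given for Fosl1.

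The JUN genes were lower by smaller amounts. Jun, which encodes the partner that FOS proteins need to bind DNA as AP-1, read 9.70 on the control and 9.10 on the overexpression array with probe set 1417409_at. This is a difference of -0.60, or 1.51-fold lower, and 6.33% of bright genes were as low or lower. On its second probe set, 1448694_at, which just reached the brightness limit in control cells and did not in overexpressing cells, the signals were 7.96 and 7.75 and the difference was -0.21, less than the SD between probe sets. Both probe sets had the lower value in overexpressing cells, but the sizes differed. Junb, a JUN relative with a weaker activation domain that can oppose JUN at some promoters, went from 9.49 to 9.07. Its difference of -0.41 was reached by 12.3% of bright genes.

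The EGR genes encode zinc finger factors, of which EGR1 is the most widely used transcript-level marker of ERK activity. Egr1 read 13.23 on the control and 12.93 on the overexpression array, differing by -0.29, or 1.23-fold lower. Of all bright genes, 19.1% were as low or lower. Egr1 was in the brightest range, so its difference was larger than the SD of 0.16 seen there between probe sets of a gene, and much smaller than that of Fos on the same arrays. Egr2, also known as Krox20, was lower on both probe sets. On the bright one, 1427683_at, which was bright through the control array alone, it went from 8.25 to 7.87, a difference of -0.38, and 13.8% of bright genes were as low or lower. On the dim one, 1427682_a_at, it went from 7.40 to 6.47, a difference of -0.93.

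Srf, which encodes the serum response factor, was lower on both of its bright probe sets. On 1418255_s_at, a probe set type that can bind related transcripts, the control array read 9.90 and the overexpression array 9.11. The difference was -0.78, or 1.72-fold lower, and 3.23% of bright genes were as low or lower. On 1418256_at it was 9.52 and 9.19, a difference of -0.33, or 1.25-fold lower. The probe sets agree in direction and differ by a log2 value larger than the within-gene SD of 0.23, so the size of the Srf difference depends on the probe set.

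The IER genes are early-response genes outside the AP-1 and EGR families. Ier2, which encodes a nuclear protein, read 12.47 on the control and 12.12 on the overexpression array, differing by -0.35, and 15.2% of bright genes were as low or lower. Ier3, whose product takes part in ERK and NF-kappaB responses and in cell survival, was the exception. It read 9.92 on the control and 10.12 on the overexpression array, differing by 0.20. Its only probe set, 1419647_a_at, is of a type that can match several transcripts. Of the 11 bright probe sets of the 10 genes, 10 were lower, while 49.3% of all bright probe sets were. For 3 of these 10, of Fosb, Jun and Egr2, the control array alone was bright, so that only the lower direction could be counted. Of the 8 bright on both arrays 7 were lower, beside 49.2% of all such probe sets. Of the 4 genes with 2 probe sets, Jun, Egr2 and Srf were lower on both.

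**Figure D2:**
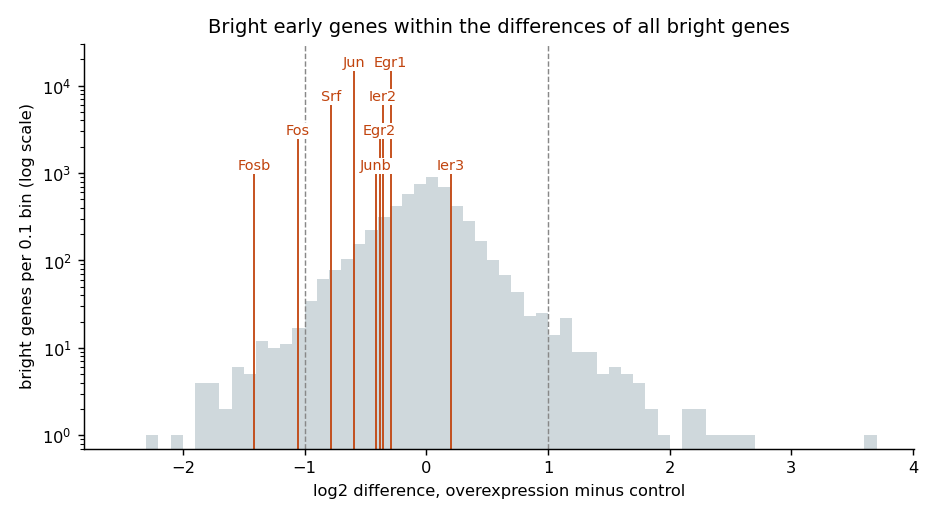
Histogram of the log2 difference (x axis, overexpression minus control) of 5609 bright genes in bins of 0.1, with a log-scaled count axis, orange lines at the 9 bright early genes and dashed lines at the 2-fold limits of -1 and 1. Fosb and Fos lie beyond -1, Srf and Jun between -1 and -0.5, and Egr1, Ier2, Egr2 and Junb between -0.5 and -0.25, in the shoulder of the distribution.

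A stretch of neighbouring genes on chromosome 14, described with Vcl below, differed as a block on these arrays. Each early gene was therefore set beside the 10 nearest bright genes on each side in RefSeq gene order. The early genes themselves were left out as neighbours. Junb and Ier2, both on chromosome 8, lie within each other's stretch and share many neighbours, so their comparisons are not separate. The 10 genes lie on 8 chromosomes, none of them chromosome 14. The median of the 20 neighbours lay between -0.18 and 0.18 for all 10 genes. Around Fos on chromosome 12 it was 0.10, with the lowest neighbour at -0.38. Around Fosb on chromosome 7 it was -0.11, with the lowest at -0.80. Around Srf on chromosome 17 it was 0.02, with the lowest at -0.71. For Fos, Fosb and Srf no neighbour was as low as the gene itself on the probe set standing for it. For Jun, Junb, Egr1, Egr2 and Ier2 between 1 and 3 of the 20 were. No neighbour of the dim Fosl1 was as low as its probe set 1417487_at. Its other probe set went the opposite way, so no position is given for Fosl1. Ier3, on the same chromosome as Srf, had neighbours with a median of -0.18, of which 16 of 20 were lower, and it was higher than 19 of them.

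**Figure D3:**
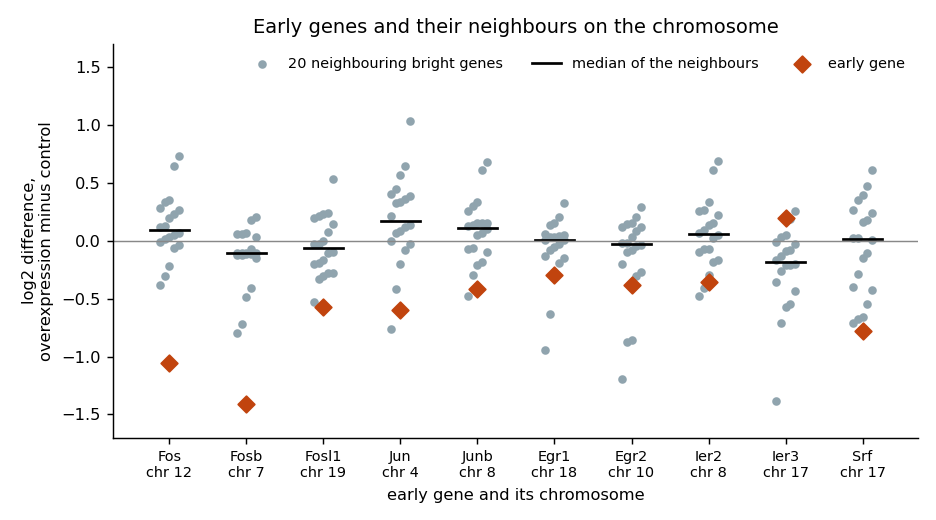
Log2 difference (y axis, overexpression minus control) of each early gene (orange diamonds), its 20 nearest bright genes on the chromosome, early genes left out (grey points), and their median (black bars). The medians lie between -0.18 and 0.18, and the diamonds of Fos, Fosb, Fosl1 and Srf lie below all of their neighbours. Fosl1 is drawn from its dim probe set 1417487_at, and its other probe set went the opposite way.

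Genes that act with the early genes were described through 8 lists of 87 genes, of which 65 were measured and 47 bright. Of 17 bright genes in a list of other immediate early genes, 16 were lower and 1 higher, beside the 49.8% of all bright genes that were lower. None differed by 2-fold, and the median log2 difference was -0.30. Myc, Mcl1, Phlda1, Ccn1, Plk3 and Nfkbiz were lower by less than the within-gene SD of 0.23. Only 1 of the 17 was at least 1.5-fold lower, beside 6.69% of all bright genes. The largest difference was that of Klf6, a zinc finger factor gene, which read 10.97 on the control and 10.15 on the overexpression array and differed by -0.83. Its other probe sets, both bright, stood at -0.57. Btg2, an antiproliferative gene, differed by -0.56 on 1 bright probe set and by -0.050 on another. Cebpb, which encodes a bZIP factor, differed by -0.54 and -0.46 on its 2 bright probe sets. The single higher gene was Sgk1, a serum- and glucocorticoid-induced kinase gene, at 0.51, chosen for mention after its value was seen. Myc, an early gene that is also a LIF target in these cells, stood at -0.01, likewise chosen afterwards.

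Of the other AP-1 subunits, 5 of 8 were measured and only Atf2 was bright, with probe sets at -0.06, 0.26 and 0.27. Fosl2, Batf, Atf7 and Jdp2 were dim, and Jund, Batf3 and Atf3 had no probe set of their own here. Among the other EGR factors and their NAB corepressors, only Nab1 was bright, at 0.21 and 0.97 on its 2 probe sets, and Egr3 and Nab2 were dim. The SRF cofactors, which include the ternary complex factors phosphorylated by ERK and the actin-regulated MRTF proteins, had 3 bright members. These were Elk3 at -0.26, Mrtfa at -0.19 and Elk4 at -0.01, none of them at least 1.5-fold lower.

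Genes downstream of SRF and AP-1 differed less than Fos and Fosb on the probe sets standing for them. Of 13 bright cytoskeletal and muscle genes known as SRF targets, 10 were lower and 3 higher on the probe set standing for the gene. None differed by 2-fold on it, and the median was -0.27. Among all bright genes 49.8% were lower. Only 1 of the 13 was at least 1.5-fold lower, beside 6.69% of all bright genes. Actg1, Tagln and Fhl2 were lower by less than the within-gene SD of 0.23. Tln1, which encodes the focal adhesion protein talin, differed by -0.44 on the probe set standing for it. On another, bright through the control array alone, it differed by -1.20, or 2.29-fold lower. Tpm2, a tropomyosin gene, differed by -0.65 and by -0.54 where bright, and Actg2, an actin gene of smooth muscle, at -0.56. Vcl, which encodes the focal adhesion protein vinculin, was higher at 0.80. It lies on chromosome 14 between Abhd6 and Ghitm, a stretch picked out from these same data, whose 70 bright genes had a median of 1.08, and with that median subtracted Vcl stood at -0.28. Of the 3 bright AP-1 targets all were lower, beside 49.8% of all bright genes. The amounts were small, Ccnd1, the cyclin D1 gene, at -0.28, Mmp3 at -0.10 and Cd44 at -0.06. Several of these SRF targets are also strongly expressed by fibroblasts.

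**Figure D4:**
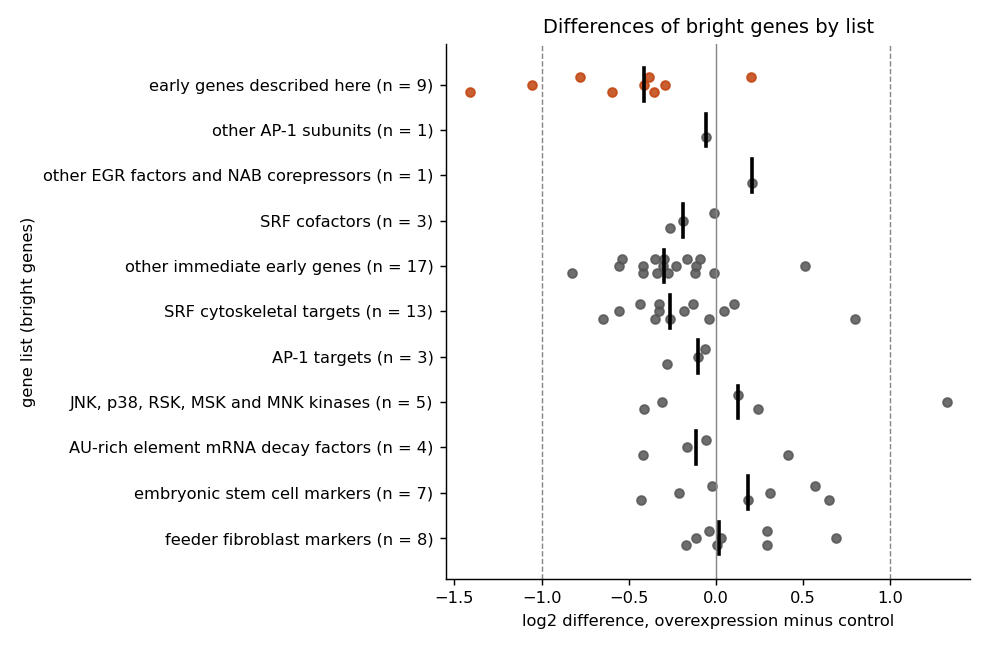
Log2 difference (x axis, overexpression minus control) of each bright gene (points, 1 probe set per gene) in the early genes described here (orange) and in 8 related and 2 marker lists (grey), with black bars at the medians and dashed lines at the 2-fold limits. Of the other immediate early genes 16 of 17 points lie below 0, while the feeder fibroblast markers scatter around their median of 0.02.

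Of the kinases that lead to early genes, Mapk8 was the only bright gene of the related lists at least 2-fold different on the probe set standing for it. It encodes JNK1, which phosphorylates JUN, and read 9.58 on the control and 10.90 on the overexpression array, while 1.53% of all bright genes were at least 2-fold higher. Its 3 probe sets stood at 1.32, 1.23 and 1.35. It lies in the same chromosome 14 stretch as Vcl, and with the stretch's median subtracted it stood at 0.25. Among the 5 bright kinase genes 3 were higher and 2 lower, beside 49.8% lower among all bright genes, and their median was 0.13. Mapk9 was higher at 0.24, with another bright probe set at 0.53. Mapk14 was higher at 0.13, with another bright probe set at -0.05. The lower genes were Rps6ka3, the gene of the ERK-activated kinase RSK2, at -0.42, and Mknk2, a gene of a MAP kinase-interacting kinase, at -0.31. Early gene transcripts carry AU-rich elements that mark them for rapid decay. Of the 4 bright genes of decay and binding factors for these elements, 3 were lower, beside 49.8% of all bright genes, and 1 higher. Zfp36l1 stood at 0.41, Zfp36l2 at -0.42, Elavl1 at -0.16 and Hnrnpd at -0.06, the last pair under the within-gene SD of 0.23.

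The identity of the cells and the RNA were checked on the same arrays. All 7 measured embryonic stem cell markers were bright on both arrays, with Pou5f1 at 13.55 in control and 13.34 in overexpressing cells, Sox2 at 13.41 and 13.59 and Nanog at 12.87 and 13.44. Of the 7, 4 were higher and 3 lower, and the largest differences were those of Esrrb at 0.65, Nanog at 0.57 and Utf1 at -0.43. Another bright Esrrb probe set differed by 0.17. Of the 14 feeder fibroblast markers 12 were measured and 8 were bright, with Col1a1 at 8.19 on both arrays, Col1a2 at 10.37 and 10.26 and Col3a1 at 10.31 and 10.27. Of the 8 bright markers 5 were higher and 3 lower. The largest differences were those of Pdgfrb at 0.69, or 1.61-fold higher, Prrx1 at 0.29 and Postn at 0.29. A dim Pdgfrb probe set went the other way, at -0.98. The dim markers were Col6a1 at -0.13, Col6a2 at 0.21, Lum at 0.42 and Pdgfra at 1.31. That Pdgfra value had its control signal under the floor, and another Pdgfra probe set stood at -0.02. The log2 of the summed signal of all 12 measured feeder markers, dim ones included, was 12.53 in control and 12.61 in overexpressing cells. No marker was listed at 0. Fibroblasts can express early genes too, and their share in the signals above was not tested. In RNA of a whole culture, fewer cells expressing a gene and less RNA per cell cannot be told apart. The Actb control probe sets at the 3' end, middle and 5' end of the transcript differed between arrays by 0.10, 0.06 and 0.05, and those of Gapdh by 0.16, 0.12 and 0.17, so both ends of these transcripts moved alike.

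The differences were recomputed under 12 other settings of scaling, floor, brightness, probe sets and threshold. Settings of brightness and threshold change only what is counted, so they could not change the difference of a gene. Fos and Fosb, each read by a single probe set above the floor, changed only under centring, quantile normalization, loess subtraction and the pseudocount. Fos stayed between -1.09 and -1.002 and Fosb between -1.41 and -1.24. With each array centred on its median Fos stood at -1.002, at the limit. Apart from Ier3 and from Fosl1, whose probe sets went opposite ways, the genes were lower in every setting, with Egr1 between -0.34 and -0.24, Junb between -0.41 and -0.36, Ier2 between -0.39 and -0.30 and Jun between -0.60 and -0.40. Egr2 lay between -0.66 and -0.32, the larger size being its value with probe sets averaged. Srf was the least stable of the bright genes, between -0.78 and -0.33. The smaller size was its value when probe sets of types that can match several transcripts were dropped. Ier3 stayed between 0.19 and 0.26 and has no probe set left under that last setting.

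**Figure D5:**
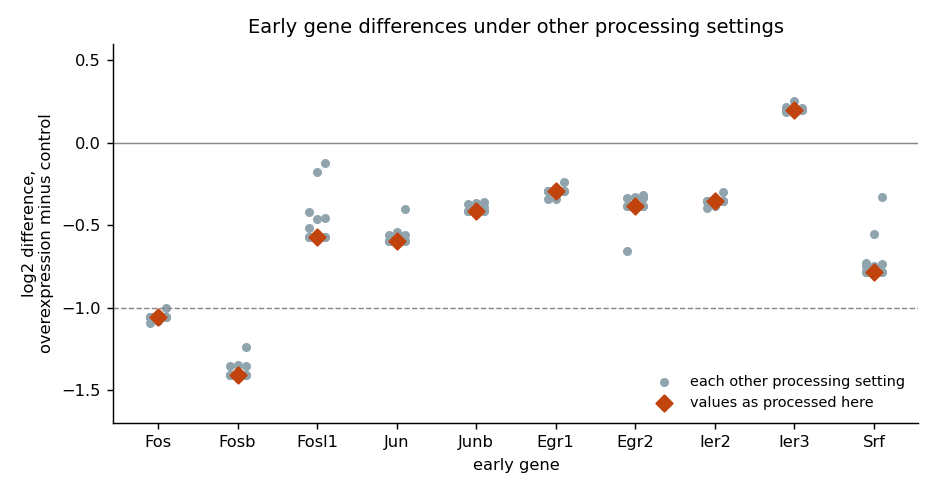
Log2 difference (y axis, overexpression minus control) of each early gene as processed here (orange diamonds) and under each other processing setting (grey points), with a solid line at 0 and a dashed line at the 2-fold limit of -1. Fosb stays below -1 and Fos at or below it, between -1.09 and -1.002, while Srf and Fosl1 spread most. Points of the brightness and threshold settings could not differ from the diamonds.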

How the data were processed

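The authors deposited log2 signals, with 1 value for each probe set on each array. That they are log2 follows from the values, the highest being 15.13 and 15.26. MAS5 and affy are named, with no version or role, in the submitters' processing notes, which give no scaling target. Median log2 signal was 7.87 in control and 7.81 in overexpressing cells over 16994 probe sets. The number of arrays, 1 per group, limits the precision, and no test was possible.

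Probe sets were named through the platform's annotation table and RefSeq gene IDs of GRCm38.p6, and 15252 of 15273 singly named probe sets matched. Those with several names (501) or none (1156) and 64 control probe sets were left out. Values were compared as deposited, with the floor, brightness rule and gene representation given above, in Python 3.11.15 with pandas 2.3.3. The rules were tested on simulated arrays with planted log2 changes of 1.5 or more in either direction. These were larger than any early gene difference given above. The simulated noise had the SD between probe sets of a gene and held no variation between cultures. That test therefore says nothing on differences of the sizes described here. The members, lists and rules were chosen with earlier results of these data known. Named genes were all members and, from each related list, those past 2-fold and up to 3 bright genes of largest difference, with 3 stem cell and 3 feeder markers. Genes named as within the within-gene SD and the remaining bright kinase genes were added later. Settings tried were array centring, quantile normalization, loess subtraction, other floors, a pseudocount, other brightness rules, among them brightness on both arrays, added later, averaged probe sets, dropping _s_at, _x_at and _a_at probe sets, and a 1.5-fold threshold.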

Additional observations from a re-analysis of the deposited data

How the results depend on the processing

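No paired analysis was possible because each group had 1 array and no test was made. Leaving out a replicate was not possible for the same reason. A value is said to have moved if it shifted by more than the within-gene SD of 0.23, or if a count changed by more than 1.5 times. The median of the 10 early genes moved under none of the 12 other settings, of which those of brightness and threshold could not change it. With brightness at the 75th percentile, 4 early genes were bright, of which 3 were lower and 1 at least 2-fold lower, since Fosb was no longer bright. With brightness required on both arrays, a setting added after the data were seen, 7 were bright and 1, Fos, was at least 2-fold lower, and the share of bright genes at least 2-fold lower was 0.444% and higher 0.966%. Egr2 moved to -0.66 with probe sets averaged, and Srf to -0.33 without those of types that can match several transcripts. Fosl1 moved to -0.12 with probe sets averaged and to -0.18 under the higher floor. At the 1.5-fold threshold 4 of the 9 bright early genes were lower, beside 6.69% of all bright genes. Lower at that threshold were also 1 of the 17 other bright immediate early genes and 1 of the 13 bright SRF cytoskeletal targets. In the latter list 1, Vcl, was higher, beside 4.65% of all bright genes. The median of the SRF cofactors was -0.0045 and 0.28 with no floor. That of the other EGR factors and NAB corepressors, over 3 genes, was 0.21, then -0.058 with the floor at the 40th percentile and 0.59 with probe sets averaged, and the cause was not tested. The share of bright genes at least 2-fold higher was 0.87% without chromosome 14, against 1.53% with it, and the share at least 2-fold lower was 1.15%. With no brightness rule the latter was 2.19%, and with brightness at the 75th percentile 0.50%.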
